A study of Mus musculus with 23 samples.

Results

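The resistin family of the mouse has 4 genes, Retn, Retnla, Retnlb and Retnlg, and all of them had at least 1 probe on the arrays used to profile the ileum of mice given pregnenolone 16alpha-carbonitrile (PCN), a ligand of the rodent pregnane X receptor (PXR). Their probes were found by the gene name printed in the scanner files, which gave 5 probes of 56605 and, at the level of genes with a usable probe, 4 genes of 17726. The family was chosen by measured values of these same arrays, namely its PCN differences, because Retnla was lower and Retnlg higher with PCN, so the PCN differences below are a description with no test, and tests are given only for the differences between genotypes and for the genotype by PCN interaction.

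All mice were males on a C57BL/6J background, killed at ZT6, which was 6 h after the last of 4 daily intraperitoneal injections. WT mice, bought at 6 weeks of age, received corn oil alone (WT CONT, n = 6) or PCN at 100 mg/kg in corn oil (WT PCN, n = 5 arrays of 6 mice allocated). Pxr-/- mice, whose PXR gene Nr1i2 is disrupted and which had been bred for 10 years in the laboratory's own facility, received the same oil (Pxr-/- CONT, n = 6) or the same PCN (Pxr-/- PCN, n = 6). Genotype and breeding origin therefore cannot be told apart, and injected oil was common to all 4 groups. Each array held the RNA of whole ileum, so fewer cells of a type and less RNA per cell cannot be told apart.

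The 23 arrays stood on 8 slides and passed through 2 wash batches that held every group, and between 62.7% and 68.8% of probes on an array were well above background. The bile acid genes of the ileal enterocyte were bright, with Fabp6 at a log2 signal of 18.51 and the bile acid transporter Slc10a2 at 14.70 in WT CONT. Of 3 colon genes listed, Hoxb13, a distal colon gene, was well above background on 0 arrays. Car1 reached 11.38 in Pxr-/- CONT and 13.84 in Pxr-/- PCN, against at most 6.81 in WT mice. Aqp8 was well above background on 2 arrays and reached 6.53 and 9.99 in these groups, against at most 5.29 in WT mice. The part of colon RNA on these arrays was not tested. Cyp3a11, the classical PXR target, was 3.53 ± 0.32 (SE) higher on the log2 scale with PCN in WT mice (limma, adjusted p = 1.21e-06) and differed by -0.05 ± 0.31 in Pxr-/- mice (adjusted p = 0.947). The Nr1i2 probe read 12.14 in WT CONT and 11.72 in Pxr-/- CONT; whether it lies inside the deleted part is not given in the sources used here, so it checks nothing about the genotype labels.

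Resistins are small, cysteine-rich secreted proteins. Resistin itself is made by fat cells in the mouse. Resistin-like alpha, encoded by Retnla, is a hallmark of macrophages driven by the type 2 cytokines IL-4 and IL-13 through STAT6, and is made by other cells as well. Resistin-like beta, encoded by Retnlb, is secreted by intestinal goblet cells and is known to respond to gut microbes and to worm infection. Resistin-like gamma, encoded by Retnlg, is best known from bone marrow and myeloid cells.

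Retnlb, Retnla and Retnlg lie next to each other on chromosome 16, and RefSeq (GRCm38.p6) places no other gene between the first and the last of these 3. Their probes spanned 55653 bases on the mm9 build used by the scanner files, at chr16:48818874-48818933 for Retnlb, chr16:48844447-48844506 for Retnla and chr16:48874468-48874527 for Retnlg. The probes of Retn lay apart from them, at chr8:3657312-3657371 and chr8:3659757-3659816. Whether the probes lie in coding sequence or in a 3′ UTR was not analysed here. The following 30-base stretches of the 60-base probes are shown because every value below rests on them and because related genes could share signal. For Retnla and Retnlg the stretch is the pair of windows that match best between both probes, with the bases that differ in capitals, and for the others it is the start of the probe.

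Retnla: AaCAaaaaCTGcaGtcTcaaTttggaaaTc
Retnlg: TaACaaaaGCAcaAtcCcaaCttggaaaCc
Retnlb: aggaggttgagaaaccaatttcaaaatgat
Retn, first probe: aaagtgtgtcactgccagtgtgcaaggata
Retn, second probe: actcacgtgcgcgaatccacacacaagcac

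In these best windows 20 of 30 bases were the same between Retnla and Retnlg, 21 between Retnlb and Retnlg and 16 between Retnla and Retnlb. The longest run of identical bases was 8 between Retnla and Retnlg and 6 between either of the other pairs on chromosome 16. Signal that a probe may take from a related transcript was not measured.

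The windows before the gene starts of Retnla and Retnlg resemble each other too. In the 250 bases before each RefSeq start, a local alignment of 173 columns held 135 identical bases. They are shown here because Retnla and Retnlg, with similar upstream sequence, stood on opposite sides of 0 in their PCN differences. The stretches come from RefSeq (GRCm38.p6), which gave a window for Retn, Retnla and Retnlg, at chr16:48842404-48842553 for Retnla and chr16:48872476-48872607 for Retnlg, both on the plus strand. Capitals mark matches to TTCNNNNGAA, the letters bound by STAT6, or to TTGCNNAA, a form of the letters bound by C/EBP factors.

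Retnla: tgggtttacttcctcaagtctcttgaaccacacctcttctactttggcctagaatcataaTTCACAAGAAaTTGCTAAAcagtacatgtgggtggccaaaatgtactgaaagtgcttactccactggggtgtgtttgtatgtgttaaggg
Retnlg: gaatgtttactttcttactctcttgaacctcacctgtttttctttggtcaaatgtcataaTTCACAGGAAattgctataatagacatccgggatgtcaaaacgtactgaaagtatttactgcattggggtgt

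TTCNNNNGAA, which reads the same on both strands, occurred once in the Retnla window as TTCACAAGAA, from 145 to 136 bases before the start, and once in the Retnlg window as TTCACAGGAA, from 72 to 63 bases before the start. It occurred in 5.85% of all 32851 RefSeq windows of the same 250 bases and did not occur in that of Retn. TTGCNNAA, searched on both strands, was found in the Retnla window as TTGCTAAA, just after the STAT6 letters. The bases at that place in Retnlg do not match it, and its only match there was on the minus strand, from 246 to 239 bases before the start. These letters were present in 9.56% of all windows. AGGTCA, the half-site of many nuclear receptors, was found once in each of the Retnla and Retnlg windows and in 14.0% of all windows. No motif searched overlapped another in these windows, and a match of letters is not evidence of binding.

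**Figure D1:**
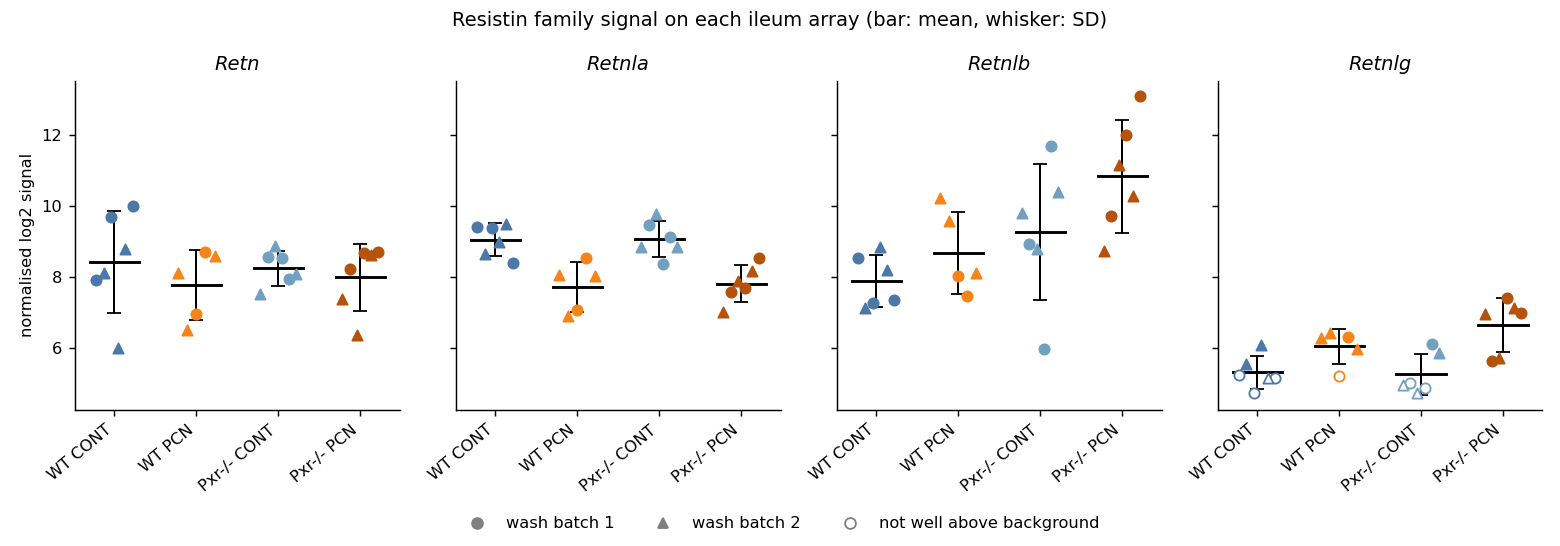
Normalised log2 signal of the brighter Retn probe, Retnla, Retnlb and Retnlg (y axis) on each of the 23 ileum arrays by group (x axis), with bars for the mean, whiskers for the SD, circles for wash batch 1, triangles for wash batch 2 and open symbols for signals not well above background. Retnla sits lower in both PCN groups, Retnlg is near background in both CONT groups, and Retnlb has the widest scatter within groups.

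Retnla, the macrophage and type 2 response gene, was well above background on all 23 arrays. Its normalised log2 signal in WT CONT was 8.39 at its lowest, 9.19 at the median and 9.50 at its highest. In WT PCN the 5 arrays read 6.88, 7.06, 8.04, 8.06 and 8.53. WT PCN lay below every WT CONT array in 4 of 5 cases, and the groups overlapped through the highest PCN array and the lowest CONT array. The lowest, median and highest signals were 8.35, 8.99 and 9.77 in Pxr-/- CONT and 7.02, 7.79 and 8.54 in Pxr-/- PCN. Here 5 of 6 PCN arrays lay below every CONT array. The mean was 9.05 ± 0.45 (SD) over the 6 WT CONT arrays against 7.71 ± 0.71 over the 5 WT PCN arrays. For Pxr-/- mice it was 9.07 ± 0.50 over 6 CONT arrays against 7.81 ± 0.52 over 6 PCN arrays. The fitted PCN difference was -1.34 ± 0.31 (SE) in WT mice and -1.26 ± 0.30 in Pxr-/- mice, which corresponds to signals 2.53-fold and 2.39-fold lower. Every PCN array lay below the mean of its CONT group in both genotypes. Within wash batch 1 the differences were -1.26 in WT and -1.05 in Pxr-/- mice, and within wash batch 2 they were -1.39 and -1.46.

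The genotypes were also tested for Retnla. The choice of the family rested on PCN differences of these same arrays, so the tests under PCN and of the interaction may not be independent of it. The signal of Pxr-/- CONT differed from that of WT CONT by 0.01 ± 0.30 (SE; limma, adjusted p = 0.995), with a 95% confidence interval from -0.60 to 0.63. Under PCN the difference between genotypes was 0.09 ± 0.31 (adjusted p = 1.0), with an interval from -0.55 to 0.74. The interaction, which is the PCN difference in Pxr-/- minus that in WT mice, was 0.08 ± 0.43 (adjusted p = 0.999). Its 95% interval ran from -0.81 to 0.97, so the arrays were compatible with any difference within that range between the genotypes in the response of Retnla.

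Retnlg, the myeloid member, gave the dimmest signal of the family and was close to the limit of the arrays. It was well above background on 2 of 6 arrays in WT CONT, 4 of 5 in WT PCN, 2 of 6 in Pxr-/- CONT and 6 of 6 in Pxr-/- PCN. It thus entered the test through the PCN groups alone, since at least 50% of the arrays of some group had to be well above background. In WT CONT its lowest, median and highest log2 signals were 4.70, 5.18 and 6.07. The 5 arrays of WT PCN read 5.21, 5.96, 6.28, 6.31 and 6.41. Of these, 3 lay above every WT CONT array, and the array at 5.21 was within the CONT range. The corresponding signals were 4.73, 4.96 and 6.09 in Pxr-/- CONT and 5.63, 6.98 and 7.39 in Pxr-/- PCN, where 4 of 6 arrays lay above every CONT array. The fitted PCN difference was 0.71 ± 0.33 (SE) in WT and 1.39 ± 0.31 in Pxr-/- mice, which corresponds to 1.64-fold and 2.62-fold. Because this scale keeps the background in the signal, it compresses the differences of so dim a probe. With the scanner's background-subtracted signal the differences were 1.63 ± 0.74 (SE) and 3.17 ± 0.71. That signal was as low as 2.26 before logs on a CONT array not well above background, where small errors weigh heavily. With another background correction, normexp with an offset of 50, the differences were smaller, at 0.45 ± 0.22 and 0.94 ± 0.21. In wash batch 1 the differences were 0.74 in WT and 1.36 in Pxr-/- mice, and in wash batch 2 they were 0.63 and 1.42.

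Between genotypes, Retnlg differed by -0.06 ± 0.31 (SE) without PCN (limma, adjusted p = 0.985). Under PCN it was 0.62 ± 0.33 higher in Pxr-/- mice (limma, adjusted p = 0.782), with 4 of 6 arrays above every WT PCN array and 2 below the mean of WT PCN. The interaction was 0.67 ± 0.45 (adjusted p = 0.999), with a 95% interval from -0.27 to 1.62. Retnlg was chosen for its PCN rise and entered the test through the PCN groups alone. The tests under PCN and of the interaction are therefore not independent of that choice, and no conclusion is drawn from them.

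Retnlb, the goblet cell member, had the largest spread of the family. Its log2 signal ran from 5.96 to 13.12 over the 23 arrays, a 142.7-fold range, and its SD within groups was larger than that of 99.9% of tested probes. All 23 arrays were well above background. The lowest, median and highest signals were 7.11, 7.77 and 8.83 in WT CONT. In WT PCN the arrays read 7.46, 8.03, 8.10, 9.57 and 10.22. Pxr-/- CONT ran from 5.96 through a median of 9.38 to 11.69, and Pxr-/- PCN from 8.74 through 10.72 to 13.12. The order of the means was WT CONT at 7.88 ± 0.74 (SD, n = 6), WT PCN at 8.68 ± 1.16 (n = 5), Pxr-/- CONT at 9.27 ± 1.94 (n = 6) and Pxr-/- PCN at 10.84 ± 1.59 (n = 6). All neighbours in this order overlapped.

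Without PCN, Retnlb was 1.39 ± 0.77 (SE) higher in Pxr-/- than in WT mice, which did not pass the test (limma, adjusted p = 0.652). With the slide as a fixed block it was 2.28 ± 0.63 (adjusted p = 0.0948), and over the 14 alternatives other than leaving out arrays the adjusted p ran from 0.0948 to 0.999. Of the Pxr-/- CONT arrays, 4 lay above every WT CONT array and 1, at 5.96, lay below every WT CONT array. Under PCN the difference between genotypes was 2.19 ± 0.81, a 4.55-fold higher signal in Pxr-/- mice, with a 95% interval from 0.51 to 3.86. All 6 Pxr-/- PCN arrays lay above the WT PCN mean, and 4 lay above every WT PCN array. This difference had an unadjusted limma p of 0.0131 and did not pass after adjustment over all probes (adjusted p = 0.444). It was 3.87 in wash batch 1, where WT PCN had 2 arrays, and 0.77 in wash batch 2, where it had 3. The PCN differences of Retnlb were 0.78 ± 0.81 in WT and 1.57 ± 0.77 in Pxr-/- mice. They were 0.03 and 2.75 in wash batch 1 but 1.25 and 0.39 in wash batch 2, so that the order of the genotypes turned. Their difference was 0.80 ± 1.12 (adjusted p = 0.999; interval from -1.52 to 3.11).

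Retn, the fat cell hormone, was read by 2 probes whose starts lie 2445 bases apart and which followed each other closely over the arrays (r = 0.988 over 23 arrays after group means and wash batch were removed). The brighter probe read 5.98, 8.46 and 9.99 as its lowest, median and highest signal in WT CONT. The 5 WT PCN arrays read 6.48, 6.96, 8.10, 8.58 and 8.71. Signals were 7.51, 8.30 and 8.86 in Pxr-/- CONT and 6.35, 8.42 and 8.69 in Pxr-/- PCN. All 4 groups overlapped, and the 16.1-fold range inside WT CONT matched the whole range of the gene. The PCN difference was -0.57 ± 0.53 (SE) in WT and -0.26 ± 0.50 in Pxr-/- mice, and it was -0.40 and -0.49 with the other probe. In WT mice it was -1.37 within wash batch 1 and 0.09 within wash batch 2, and in Pxr-/- mice 0.19 and -0.71. The genotype difference was -0.17 ± 0.50 without PCN (limma, adjusted p = 0.971) and 0.15 ± 0.53 with PCN (adjusted p = 1.0). The interaction was 0.31 ± 0.73 (adjusted p = 0.999; 95% interval from -1.20 to 1.83).

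**Figure D2:**
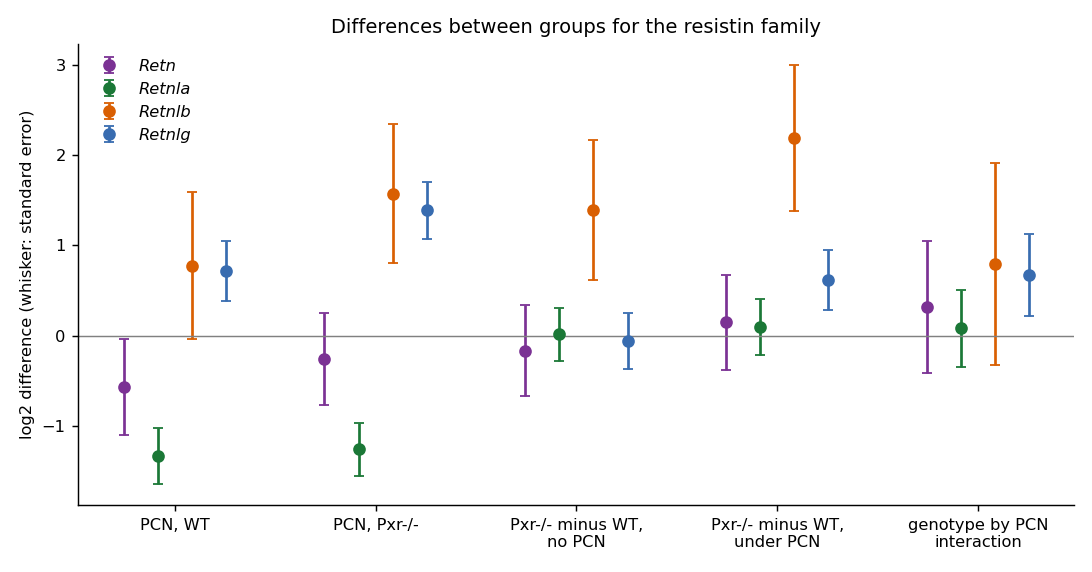
Fitted log2 differences (y axis; whiskers are standard errors) of the 4 resistin family genes for the 5 contrasts on the x axis, each with WT CONT n = 6, WT PCN n = 5 and both Pxr-/- groups n = 6. Retnla lies at -1.34 and -1.26 in the PCN contrasts and near 0 between genotypes, whereas Retnlb lies at 1.39 and 2.19 between genotypes with wide errors.

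None of the 4 members passed the threshold, an adjusted p of 0.05 or less with a fold above 1.5, between genotypes or for the interaction. Of all 37591 tested probes, 53 (0.141%) passed between genotypes without PCN, 137 (0.364%) under PCN and 29 (0.0771%) for the interaction. Against that background a count of 0 of 4 says little about the family. At an unadjusted p under 0.05, Retnlb under PCN was the sole member to pass. On chromosome 16, which also carries Nr1i2 some 10570129 bases away from the nearest member probe, 11 of 1259 probes (0.874%) passed without PCN and 19 (1.51%) under PCN. In neither PCN contrast did a member separate its groups fully. Over all tested probes, 1.16% lay fully lower and 1.3% fully higher with PCN in WT mice, and 1.05% and 1.23% in Pxr-/- mice.

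The flanking genes did not pass in any of the 5 contrasts. On the side of Retnlb, Trat1, a T cell adaptor, differed by -0.05 ± 0.20 (SE) with PCN in WT mice (limma, adjusted p = 0.967), while Morc1 and Dppa2, germ cell and early embryo genes, were well above background on 0 arrays. On the side of Retnlg, Dzip3 differed by 0.11 ± 0.09 (adjusted p = 0.705) and Cip2a by -0.02 ± 0.13 (adjusted p = 0.973), and Myh15 was well above background on 0 arrays. In Pxr-/- mice the PCN differences of Trat1, Dzip3 and Cip2a were -0.24, 0.07 and -0.19.

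The 3 genes of the cluster differed in how far they followed each other from mouse to mouse. With group means and wash batch removed, the correlation over 23 arrays was 0.05 between Retnla and Retnlg, 0.32 between Retnla and Retnlb and 0.47 between Retnlb and Retnlg. Retn correlated with Retnla at 0.38 and with Retnlb at -0.19. These and the following correlations describe arrays that share slides and wash batches, and carry no test.

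Each gene had its own neighbours in expression among the 17708 other genes compared. Retn went with Adipoq, which encodes adiponectin (r = 0.973), Car3 (0.961), Cfd, which encodes adipsin (0.952), the lipid droplet gene Plin1 (0.951) and Hp (0.928). Its correlation with the mean of 10 adipose tissue genes was 0.944, the highest of any member with any of the 17 lists. The summed linear signal of that list ran from 6207 to 42640 in WT CONT, 10350 to 33360 in WT PCN, 8929 to 16710 in Pxr-/- CONT and 7151 to 24840 in Pxr-/- PCN. The widest range of Retn and of the adipose list was thus in WT CONT, and 0 of the 10 list genes passed the test in any contrast. The part of attached fat in the Retn values was not tested.

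Retnlg went with Tbxas1, the thromboxane synthase of myeloid cells (r = 0.895), the protease Ctsk (0.840), the granulocyte transcription factor Cebpe (0.816), Adamts12 (0.788) and Pdgfrl (0.788). With the mean of 13 macrophage genes it correlated at 0.772, with that of 12 genes of alternatively activated macrophages at 0.632 and with that of 24 neutrophil genes at 0.455. Of its neighbours Ctsk was the sole gene past the threshold in a contrast, being 0.85 ± 0.15 (SE) higher with PCN in Pxr-/- mice (limma, adjusted p = 0.00331).

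Retnla went with Chl1 (r = 0.852), the gastrin-releasing peptide gene Grp (0.848), Lhfpl5 (0.846), Fam124a (0.844) and the complement gene C3 (0.828). It correlated at 0.745 with the 10 tested genes of a list of type 2 cytokines, their inducers and receptors. The cytokine genes Il4, Il5 and Il13 were too dim to be tested and are not among these 10. The correlation was 0.678 with 4 genes of resistin binding partners and 0.641 with 6 mesothelial genes. It was 0.323 with 12 genes of alternatively activated macrophages and 0.171 with the macrophage list. With 8 genes of B cells and Peyer patches it correlated at -0.675. None of its 5 neighbours passed in either PCN contrast. Chl1 differed by 0.13 in WT and 0.28 in Pxr-/- mice, against -1.34 and -1.26 for Retnla.

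Retnlb went with Tagap1 (r = 0.877), Cdc42ep1 (0.875), Stk39 (0.864), the substance P precursor Tac1 (0.846) and Rassf4 (0.819). Its correlation was 0.643 with 7 eosinophil genes, which do not hold Epx and Ccr3, both too dim to be tested. It was 0.608 with 10 transcription factors known to act on family promoters. With 4 genes of resistin binding partners it was 0.541, and with 13 goblet cell genes 0.507. Of the colon list, Car1 alone could be tested, and its signal reached 2668 in Pxr-/- CONT and 14660 in Pxr-/- PCN against medians of 79.1 and 86.2. The correlation of Retnlb with Car1 was 0.00. This is 1 gene whose highest signals lay far above its medians, so the value cannot decide on colon RNA. The part of colon RNA in the Retnlb values was not tested.

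**Figure D3:**
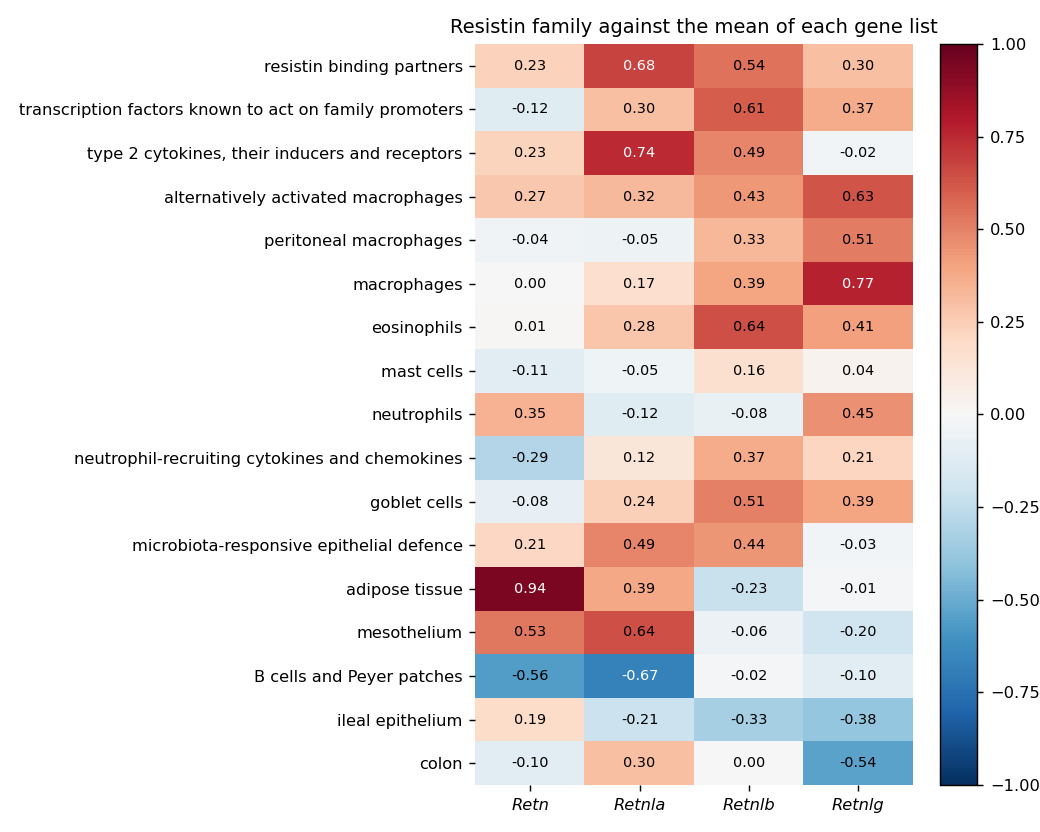
Pearson correlation (colour, with the value in each cell) of each resistin family gene (columns) with the mean of each of 17 gene lists (rows) over 23 arrays, after group means and wash batch were removed. Retn stands out with adipose tissue genes at 0.94 and Retnlg with macrophage genes at 0.77. Retnla is at 0.74 with the type 2 list, which here lacks Il4, Il5 and Il13, and at -0.67 with the B cell list.

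The genes known to switch on Retnla were read beside it. The cytokines that drive it were hardly seen, since Il4 and Il13 were well above background on 1 of 23 arrays each and Il5 on 0. Il33, an alarmin that elicits type 2 cytokines, rose by 1.23 ± 0.15 (SE) in WT (limma, adjusted p = 5.57e-05) and by 1.19 ± 0.14 in Pxr-/- mice (adjusted p = 0.000103) and was the sole gene of the 10 tested in its list to pass. For reference, 0.689% of all probes passed with PCN in WT and 0.939% in Pxr-/- mice. The median of the type 2 list was -0.02 in WT and 0.00 in Pxr-/- mice, against -0.02 and -0.01 over all probes. In each genotype 5 of its 10 tested genes lay above 0. Il1rl1, a receptor gene of the list, was at -0.42 ± 0.26 in WT (adjusted p = 0.557) and -0.66 ± 0.24 in Pxr-/- mice (adjusted p = 0.133). Stat6 differed by -0.11 and 0.03. Among the 10 transcription factors known to act on family promoters, Pparg alone passed, being 0.70 ± 0.17 higher in WT PCN (adjusted p = 0.0419), and Cebpb was 0.39 and 0.34 higher at adjusted p of 0.0436 and 0.0416, below the fold required.

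Other genes of alternatively activated macrophages were compared with Retnla for PCN. Of 12 tested genes, 2 rose and 0 fell in WT mice, with a median of 0.43, and 4 rose and 0 fell in Pxr-/- mice, with a median of 0.55. Clec10a, a lectin of these cells, rose by 0.81 ± 0.18 (SE) in WT (limma, adjusted p = 0.0234) and by 0.93 ± 0.17 in Pxr-/- mice (adjusted p = 0.00538). Ccl24, an eosinophil attractant, rose by 1.54 ± 0.29 (adjusted p = 0.00482) and 1.32 ± 0.27 (adjusted p = 0.0103). Arg1, the arginase of these cells, rose by 2.48 ± 0.52 in Pxr-/- mice (adjusted p = 0.012) and differed by 1.36 ± 0.55 in WT mice (adjusted p = 0.303). Chil3, a chitinase-like protein, rose by 2.08 ± 0.40 in Pxr-/- mice (adjusted p = 0.00693) and differed by 1.54 ± 0.42 in WT mice (adjusted p = 0.081). The lowest values of the list were those of Mgl2, a lectin closely related to Clec10a, at -0.19 ± 0.08 in WT (adjusted p = 0.369) and -0.28 ± 0.08 in Pxr-/- mice (adjusted p = 0.0511). The Mgl2 probe used, 1 of 2 on the array, was very bright, at 14.66 in WT CONT against 7.99 for Clec10a. Whether it reads Mgl2 alone was not tested. In Pxr-/- mice Ccl17 was at -0.22 ± 0.35 (adjusted p = 0.768). Of the general macrophage list, Cd68 rose by 0.60 ± 0.12 in Pxr-/- mice (adjusted p = 0.00716), and no other of the 13 genes passed in either genotype. Of 5 tested genes of peritoneal macrophages, with medians of 0.13 and 0.20, Prg4 alone passed, with a rise of 0.75 ± 0.15 in Pxr-/- mice (adjusted p = 0.00977).

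**Figure D4:**
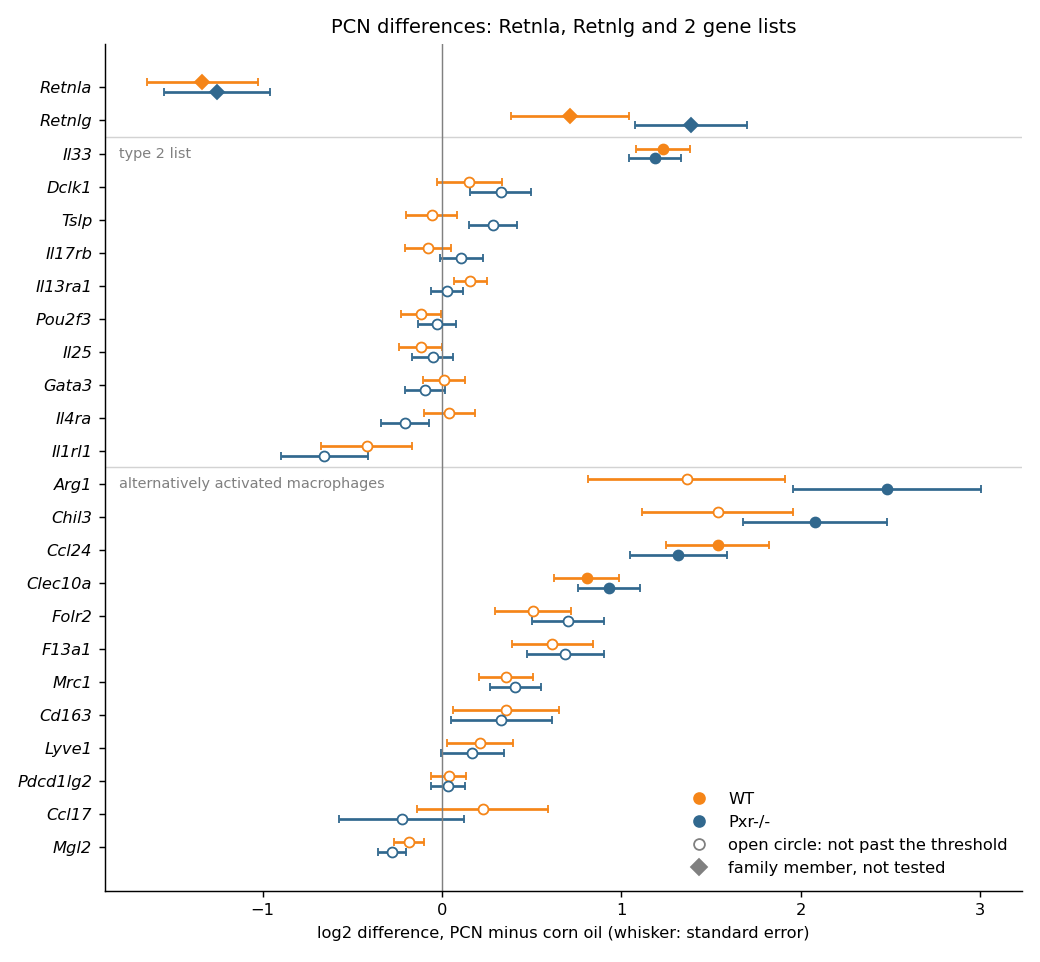
Log2 difference between PCN and corn oil (x axis; whiskers are standard errors) in WT and Pxr-/- mice for Retnla and Retnlg (diamonds, no test) and for the tested genes of the type 2 list and of alternatively activated macrophages (circles, filled where the threshold was passed). Retnla lies at -1.34 and -1.26 while Il33, Clec10a and Ccl24 lie above 0 in both genotypes.

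Further cell type lists are given as values beside the Retnla signal. The B cell list had a summed signal of 1686 to 2359 in WT CONT and 2013 to 13980 in WT PCN, and of 1536 to 2274 in Pxr-/- CONT and 1634 to 5105 in Pxr-/- PCN. Its median PCN difference was 1.42 in WT and 0.45 in Pxr-/- mice, and 0 of its 8 genes passed the test (7 at an unadjusted p under 0.05 in WT and 0 in Pxr-/- mice). The part of Peyer patch content in the lower Retnla signal was not tested. Ileal epithelium genes had medians of -0.09 and -0.08. Of 6 tested mesothelial genes, with medians of 0.05 and 0.25, Msln, the mesothelin gene, alone passed and rose by 0.99 ± 0.21 (SE) in WT (limma, adjusted p = 0.0133) and 0.74 ± 0.20 in Pxr-/- mice (adjusted p = 0.0397).

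Neutrophil genes were read beside Retnlg. Of 24 tested, 2 rose in WT (median 0.34) and 6 in Pxr-/- mice (median 0.46), and 0 fell. S100a9, a subunit of calprotectin, rose by 2.16 ± 0.46 (SE) in WT (limma, adjusted p = 0.0163) and by 2.91 ± 0.44 in Pxr-/- mice (adjusted p = 0.00105), and its partner S100a8 rose by 1.64 ± 0.40 (adjusted p = 0.0397) and 2.54 ± 0.38 (adjusted p = 0.00098). The lectins Clec4d and Clec4e rose by 2.10 ± 0.45 and 2.01 ± 0.43 in Pxr-/- mice. The granule gene Ngp was well above background on 0 arrays, and Mpo differed by 0.11 in WT and 0.08 in Pxr-/- mice. Of 8 tested cytokines and chemokines that recruit myeloid cells, Ccl2, Cxcl5 and Il6 rose in both genotypes, with the neutrophil attractant Cxcl5 higher by 1.57 ± 0.34 in WT (adjusted p = 0.0162) and 1.57 ± 0.32 in Pxr-/- mice (adjusted p = 0.0095). No gene of these lists passed between genotypes or for the interaction.

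Goblet cell genes, beside which Retnlb is read, had medians of -0.33 in WT and -0.30 in Pxr-/- mice with PCN. Of 13 tested, 0 passed in WT, and Fcgbp, a mucus protein, fell by 0.63 ± 0.12 on the log2 scale (SE; limma, adjusted p = 0.00549) and Agr2, a mucin folding enzyme, by 0.86 ± 0.22 (adjusted p = 0.0303) in Pxr-/- mice. The main mucin gene Muc2 differed by -0.36 and -0.46. Of the 13 genes, 1 lay above 0 in WT and 3 in Pxr-/- mice, without passing. Ang4 was at 0.21 ± 0.26 in WT (adjusted p = 0.827) and 0.75 ± 0.25 in Pxr-/- mice (adjusted p = 0.0879). Itln1 and Spink4 were at 0.39 and 0.17 in Pxr-/- mice. Between genotypes, 0 of the 13 passed, and their medians were -0.09 without PCN and -0.06 under PCN, while Retnlb was higher in Pxr-/- mice by 1.39 and 2.19. Among 12 epithelial defence genes that respond to microbes, 0 passed between genotypes, and the medians were 0.54 without PCN and 0.25 under PCN. With PCN the medians of that list were -0.28 in WT and -0.54 in Pxr-/- mice, and 7 and 10 of its 12 genes lay below 0 without passing. Saa1, an acute phase gene, was at -1.10 ± 0.47 in WT (adjusted p = 0.343) and -1.28 ± 0.45 in Pxr-/- mice (adjusted p = 0.111), whereas Saa3 and Lcn2 rose in both genotypes and were the only 2 to pass. Of 8 mast cell genes, 2 rose in each genotype and the medians were 0.18 in WT and 0.29 in Pxr-/- mice. Both were proteases that mark the mucosal mast cells of worm infection, of which Mcpt1 rose by 2.06 ± 0.38 in WT (adjusted p = 0.00408) and 1.51 ± 0.36 in Pxr-/- mice (adjusted p = 0.0218), and Mcpt2 by 0.94 ± 0.18 and 0.87 ± 0.17. The receptor gene Kit was at -0.02 and 0.22. Eosinophil genes had medians of 0.22 and 0.35 with 0 of 7 past the threshold, and their defining granule gene Epx was well above background on 0 arrays.

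Genes for proteins named as resistin binding partners were present on all arrays. Cap1, Tlr4, Dcn and Ror1 differed by between -0.12 and 0.37 with PCN over both genotypes, and 0 of 4 passed in any contrast.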

How the data were processed

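Ileum RNA of 23 mice was hybridised singly to Cy3 arrays, 1 array per mouse. Per the labels and file headers, the authors read the deposited scanner intensity with Agilent Feature Extraction 10.10.1.1; probe positions are on mm9. The median spot intensity was taken as log2, outlier spots were left out, spots of a probe were averaged, and arrays were quantile normalised. The log2 table the authors deposited, corrected for wash batch and with 37161 probes, was an alternative; for Retn it differed from the values used here by up to 0.46. Probes well above background on at least 50% of the arrays of a group were tested, 37591 of 56605. limma 3.58.1 in R 4.3.3 fitted group and wash batch (the study corrected the values for wash batch before its limma fit), with Benjamini-Hochberg adjustment over all tested probes; probes were called at an adjusted p of 0.05 or less if their fold exceeded 1.5. The script was tested on simulated data. Array precision is limited by the number of mice.

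The brightest probe stood for a gene. RefSeq (GRCm38.p6) matched 32989 probes by accession, 10228 by name and 519 by synonym; 12869 were unmatched. Likeness was Pearson's r after group means and wash batch were removed, and the 5 genes with the highest r were named. From 17 gene lists, genes called in any contrast were named, up to 4 a list, with defining markers near background. The values of other genes named, such as Stat6, Muc2, Mpo and Car1, were chosen after they were seen. Members and lists were chosen with earlier results of these data known. The tests treat mice of a group as replicates. Python 3.11.15, pandas 2.3.3, Biopython 1.88 and matplotlib 3.10.9 were used for sequences and figures.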

Additional observations from a re-analysis of the deposited data

How the results depend on the processing

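In 14 alternatives (15 for Retn, 13 for the interaction) and with each of the 23 arrays left out, no member passed between genotypes or for the interaction, and the PCN difference of Retnla lay between -1.56 and -1.05 and that of Retnlg between 0.45 and 3.17. That of Retnlb ran from 0.03 to 1.47 in WT and from 0.39 to 2.75 in Pxr-/- mice (0.41 to 1.09 and 0.90 to 2.10 with 1 array left out). The scanner's processed signal gave 1.63 and 3.17 for Retnlg with PCN in WT and Pxr-/- mice. Several differences that had not passed turned sign, among them those of the interaction of Retnlb and Retn from 0.80 and 0.31. Centring on the median gave 0.0062 for Retnlg without PCN. With the slide as a fixed block, Retnlb without PCN was 2.28 (adjusted p = 0.0948), the genotype difference under PCN was -0.44 for Retn and -0.21 for Retnla, the interaction was -0.0216 for Retn, -0.29 for Retnla and -0.10 for Retnlb, and 257 probes passed between genotypes without PCN and 16 for the interaction. Wash batch 1 alone gave -0.0728 for Retnla and 0.29 for Retnlg without PCN. Wash batch 2 alone gave 0.52 for Retn without PCN and -0.28 under PCN, and interactions of -0.80 for Retn, -0.0683 for Retnla and -0.86 for Retnlb. The other Retn probe gave -0.12 under PCN and an interaction of -0.0832. The causes were not tested.

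Probes that passed with PCN in WT, PCN in Pxr-/-, genotype without PCN, genotype under PCN and interaction numbered 259, 353, 53, 137 and 29. Without a fold threshold they were 486, 1342, 81, 234 and 31. Fewer arrays gave 48, 4, 4, 77 and 3 in wash batch 1 and 48, 155, 23, 48 and 0 in wash batch 2. A fit of the groups compared alone gave 146 without PCN.

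With 1 array left out, the genotype difference without PCN ranged from -0.60 to 0.0820 for Retn, -0.14 to 0.17 for Retnla, 0.85 to 2.07 for Retnlb and -0.26 to 0.0834 for Retnlg, and under PCN from -0.22 to 0.43, -0.11 to 0.32, 1.71 to 2.68 and 0.41 to 0.84. The interaction ranged from -0.0493 to 0.77, -0.12 to 0.31, 0.08 to 1.36 and 0.47 to 0.90. The 5 counts ranged from 209 to 283, 230 to 429, 33 to 113, 114 to 191 and 19 to 36; 230 and 113 came without Pxr-/- PCN replicate 5, 33 without Pxr-/- CONT replicate 1 (34 or 35 without Pxr-/- CONT replicate 2, WT CONT replicate 5 or WT CONT replicate 6, and 83 without Pxr-/- CONT replicate 4) and 19 without Pxr-/- PCN replicate 3.

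Replicate numbers were not used to pair mice in the main fit. Correlations of same-numbered arrays ran from -0.20 to 0.43, and 6 of 23 arrays correlated best with their own number. Whether same-numbered mice share more than a number was not tested. With the replicate block the counts were 220, 306, 50, 126 and 23, and the PCN difference of Retnla was -1.34 in WT mice.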
